A study of Mus musculus with 6 samples.

Results

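Expression of 10 interleukin genes of macrophages was followed in RAW264.7 cells that carried an Fbxw11 vector or a control vector. The genes Il6, Il1a, Il1b, Il1rn, Il10, Il12b, Il23a, Il27, Il18 and Il15 were taken by symbol from the deposited gene table, which lists 56748 genes. RAW264.7 is a mouse macrophage-like line that was transformed by the Abelson leukaemia virus. All 6 libraries come from total RNA of this line, kept in Dulbecco's medium with 10% serum and antibiotics, infected with lentivirus and sorted. In 3 libraries the virus carried Fbxw11 (pMSCV-Fbxw11-pGk-GFP), and in 3 it carried the control vector. The control libraries are named GFP, and the content of their vector is not described further. The labels name no stimulus. They also do not say whether the libraries of a group are separate cultures or infections, so every p-value reflects the scatter among these 6 libraries alone, and that scatter may be technical. Fbxw11 encodes a β-TrCP protein, the substrate-binding subunit of an SCF ubiquitin ligase. By its title the series is about macrophage polarization and activity against leukaemia.

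Interleukins are cytokines through which macrophages instruct other immune cells and themselves. Their genes are classical targets of NF-kB, AP-1, C/EBP and interferon regulatory factors, and β-TrCP proteins are known for marking the NF-kB inhibitor IkBα for degradation. Several interleukins act only after assembly or cleavage. IL-27 pairs the products of Il27 and Ebi3, IL-23 those of Il23a and Il12b, and IL-12 those of Il12a and Il12b, while the precursors of IL-1β and IL-18 are cut by caspase-1. Transcripts were measured here, and secreted proteins were not.

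Values are FPKM as the authors deposited them, a read level corrected for the length of the gene and the size of the library. Reads recovered from the table summed to 16191971 to 18951653 per library. Fbxw11 itself stood at 35.8 to 36.5 FPKM in the controls and 268 to 274 FPKM with Fbxw11. Of 10 macrophage markers 9 reached a mean of 1 FPKM, and Mertk had at most 1 read in a library. Their summed level was 4174 to 4347 FPKM in the controls and 4621 to 4746 FPKM with Fbxw11. Of the 9 tested, Adgre1, Itgam and Lyz2 rose and 0 fell by limma (4.60% of all tested genes rose and 4.64% fell), with 1 lower at an unadjusted p under 0.05 and 1 called lower by voom. Lyz2, at 2346 ± 70.9 and 2628 ± 39.2 FPKM (SD, n = 3), makes up most of the sum, and 12 of 15 alternative settings ended its call. The gene lower at an unadjusted p was Fcgr3, an Fc receptor gene, at 5.61 ± 0.710 and 3.74 ± 0.902 FPKM (limma adjusted p 0.0927), which 3 of 15 alternatives called. Markers of T and NK cells summed to at most 0.130 FPKM (6 of 10 at 0 in every library, Trac and Ncr1 among them), fibroblast markers to at most 0.378 FPKM (Col3a1 at 0) and epithelial markers to at most 0.102 FPKM (Cdh1, Krt14 and Krt18 at 0). B cell markers summed to 7.19 to 8.04 FPKM in the controls and 5.45 to 7.26 FPKM with Fbxw11. Of their 4 tested genes 0 passed by limma, 0 were under an unadjusted p of 0.05 and 0 passed by voom. Neutrophil markers summed to 2.96 to 4.53 and 3.53 to 6.15 FPKM, with S100a9, Elane, Mpo and Ly6g at 0, and dendritic cell markers to 4.77 to 5.18 and 5.13 to 5.70 FPKM, with Siglech at 0. The part of the macrophage marker shift in the results that follow was not tested.

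Il6 and Il27 were higher in the Fbxw11 libraries, with ratios of mean FPKM of 3.08 and 2.001. The other 7 tested interleukin genes had log2 fold changes between -0.16 and 0.16 and did not pass the threshold. The test was limma on log2(FPKM + 1) over the 10898 genes whose mean reached 1 FPKM, and rose or fell means an adjusted p under 0.05. This filter kept 9 of the 10 genes, each with a mean above 1 FPKM in both groups, and left out Il12b. Of the 9, 2 rose, beside 4.60% of all tested genes that rose, and 0 fell, beside 4.64% that fell. At an unadjusted limma p under 0.05, 3 were higher and 1 was lower, beside 2680 of the 10898 tested genes in either direction. A voom fit on recovered reads called 3 higher and 0 lower, beside 752 and 748 of all 10898. On the TPM scale or over plain read sums Il23a was called lower. The TPM scale and plain sums also changed the share of rises among all calls, from 49.8% to 32.8% and 35.5%. The groups did not overlap for 4 of the 9, beside 31.1% of all tested genes. The median log2 fold change was 0.08 over the 9 and 0.0029 over all tested genes. In RNA pooled from many sorted cells, more cells that express a gene and more RNA per cell cannot be told apart.

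**Figure D1:**
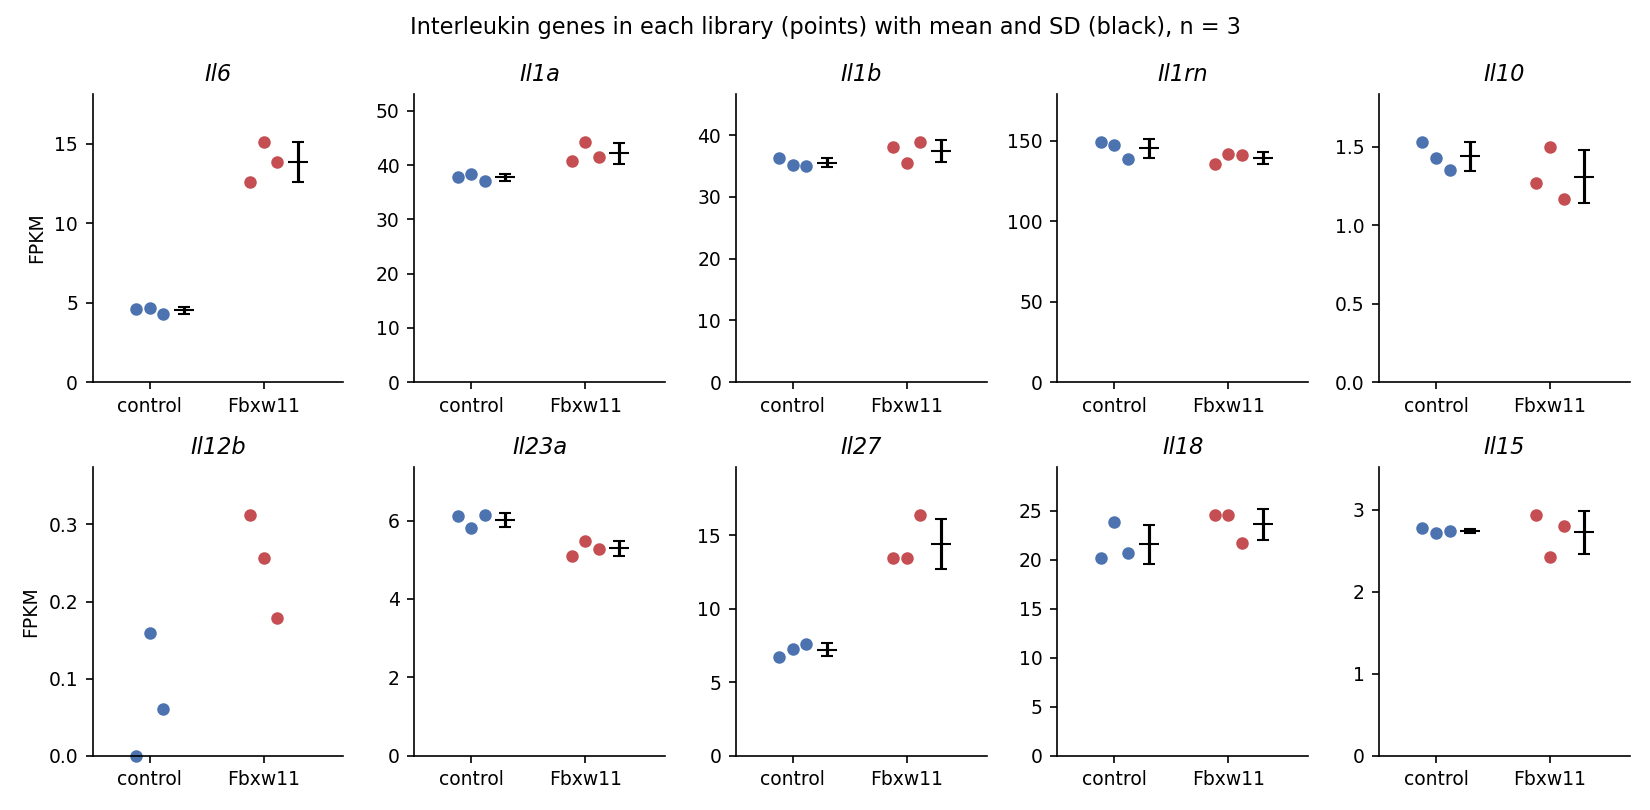
FPKM of the 10 interleukin genes in each library (blue, control; red, Fbxw11), with mean and SD in black (n = 3; left out for Il12b, which is at 0 in 1 library) and a y axis from 0 in each panel. The Fbxw11 points of Il6 (12.6 to 15.1 FPKM) and Il27 (13.4 to 16.4 FPKM) lie above all control points, while the points of Il1b, Il1rn, Il10, Il18 and Il15 overlap.

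**Figure D2:**
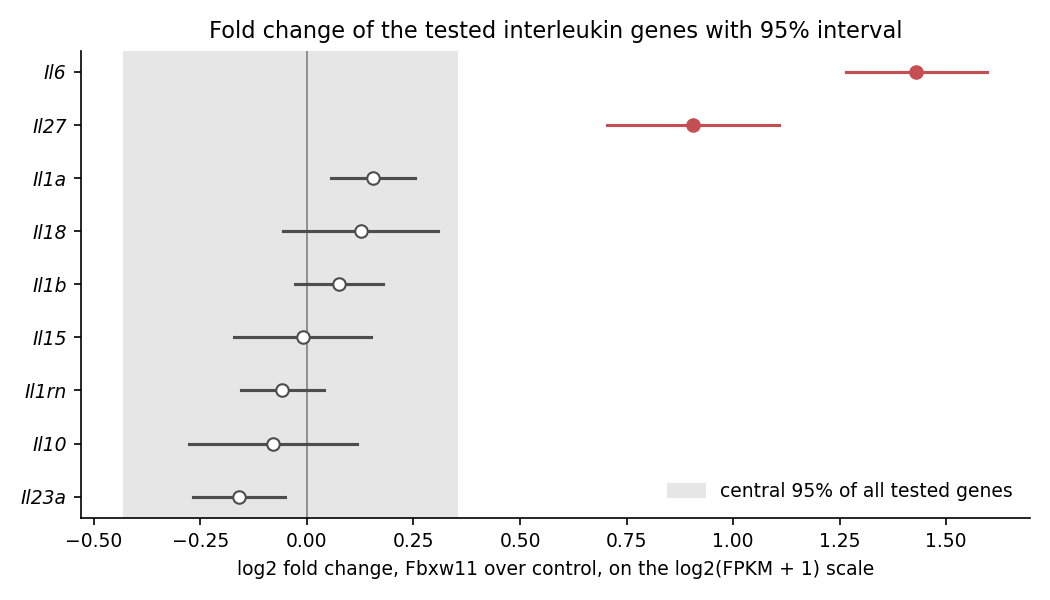
Log2 fold change of the 9 tested interleukin genes (x axis, Fbxw11 over control on the log2(FPKM + 1) scale) with limma's 95% interval, filled where the adjusted p was under 0.05. The grey band spans -0.43 to 0.35, the central 95% of all tested genes, and of the 9 points those of Il6 (1.43) and Il27 (0.91) lie outside it.

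Il6 encodes interleukin-6, a driver of fever and the acute-phase response that signals through gp130 and STAT3. Its level was 4.58, 4.67 and 4.27 FPKM in control libraries 1 to 3 and 12.6, 15.1 and 13.9 FPKM with Fbxw11 1 to 3. All Fbxw11 libraries were far above all control libraries, with no overlap. The means were 4.51 ± 0.208 and 13.9 ± 1.26 FPKM (SD, n = 3), from 176 to 218 reads per control library and 499 to 656 per Fbxw11 library. The log2 fold change was 1.43 (SE 0.069, 95% interval 1.26 to 1.59, limma adjusted p 0.000362), which is place 7 by size of rise among all 10898 tested genes. By the coordinates in the file, which differ from mm10 and carry no build name, Il6 lies on chromosome 5, 30218112 to 30224979, plus strand.

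The promoter of Il6 is shown because Il6 had the largest log2 fold change of the 9 tested genes and its promoter is a textbook case of NF-kB, C/EBP, CRE and AP-1 sites close together. That of Il1b is shown beside it as the promoter of an abundant interleukin gene that did not pass the test. Both windows run from 250 bases before to 50 bases after the RefSeq start on GRCm38.p6, and lie at chr5:30012864-30013163, plus strand, and chr2:129371090-129371389, minus strand. Capitals mark matches on either strand to the NF-kB consensus, AP-1 (TGANTCA), the CRE core (TGACGT) and C/EBP (TTGCNNAA).
Il6: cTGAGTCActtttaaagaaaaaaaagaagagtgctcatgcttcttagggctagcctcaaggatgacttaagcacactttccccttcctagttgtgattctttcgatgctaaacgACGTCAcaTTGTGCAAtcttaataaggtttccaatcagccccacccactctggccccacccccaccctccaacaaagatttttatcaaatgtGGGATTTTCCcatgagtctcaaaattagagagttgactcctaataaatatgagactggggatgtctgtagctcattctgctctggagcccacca
Il1b: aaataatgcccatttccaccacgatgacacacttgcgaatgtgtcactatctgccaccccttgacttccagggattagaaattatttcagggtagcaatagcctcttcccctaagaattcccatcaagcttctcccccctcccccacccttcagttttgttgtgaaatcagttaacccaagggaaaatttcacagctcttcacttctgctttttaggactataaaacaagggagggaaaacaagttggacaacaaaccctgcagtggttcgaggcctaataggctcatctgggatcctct
The Il6 window held 1 match to each of the 4 motifs, none overlapping another. From the start, AP-1 lay at -249 to -243, the CRE core at -136 to -131, C/EBP at -128 to -121 and NF-kB, as GGGATTTTCC, at -44 to -35. The Il1b window held no match, which says only that these letters are not in it. Of 32851 windows of this length, 8.46% held the NF-kB consensus, 7.81% AP-1, 7.51% the CRE core and 10.8% C/EBP, and 4 held all of them. The motifs were chosen with the known sites of Il6 in view, so their number there is a description and no test. RefSeq windows were found for 6 of the 10 genes. The Il1a window and 1 of 3 Il1rn windows held an AP-1 match, and those of Il12b and Il18 held none of the 4 motifs. Il10, Il15, Il23a and Il27 had no entry.

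The IL-6 receptor genes did not pass the test. Il6ra, the ligand-binding chain, stood at 3.27 ± 0.293 FPKM in the controls and 2.90 ± 0.198 FPKM with Fbxw11 (SD, n = 3), with a 95% interval of the log2 fold change of -0.30 to 0.04 (limma adjusted p 0.328). Il6st, the shared signalling chain gp130, stood at 6.56 ± 0.108 and 6.27 ± 0.268 FPKM, with an interval of -0.16 to 0.05 (limma adjusted p 0.480).

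Among 8 known target genes of STAT3 downstream of IL-6 and IL-10, 5 rose and 0 fell, beside 4.60% and 4.64% of all tested genes, with 0 lower at an unadjusted limma p under 0.05 and 0 by voom. Their median log2 fold change was 0.28, beside 0.0029 for all tested genes. The list was chosen with earlier results of these data known, so its counts are a description and no test. Socs3, the feedback inhibitor of gp130 signalling, stood at 19.8, 20.5 and 21.2 FPKM in the controls and 27.3, 26.9 and 26.0 FPKM with Fbxw11, without overlap (log2 fold change 0.37, limma adjusted p 0.00352). Pim1, a survival kinase, rose from 25.9 ± 0.458 to 34.0 ± 0.677 FPKM (SD, n = 3). The repressor gene Bcl6 rose by 0.25 on the log2 scale, the AP-1 gene Junb by 0.30 and the C/EBP gene Cebpd by 0.45. Of 15 alternative settings, 2 ended the call of Bcl6, 5 that of Junb and 11 that of Cebpd. Whether these genes moved with Il6 itself was not tested.

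Il27 encodes p28, the chain particular to IL-27, a cytokine that acts on T cells. It stood at 6.73, 7.29 and 7.62 FPKM in control libraries 1 to 3 and 13.5, 13.4 and 16.4 FPKM with Fbxw11 1 to 3. The groups were well apart, and Fbxw11 library 3 was the highest. The means were 7.21 ± 0.452 and 14.4 ± 1.69 FPKM (SD, n = 3), from 113 to 143 and 224 to 285 reads per library. The log2 fold change was 0.91 (SE 0.084, 95% interval 0.70 to 1.11, limma adjusted p 0.00234), place 23 by size of rise among all tested genes. In the file's coordinates it lies on chromosome 7, 126188182 to 126194113, minus strand. Il27 overlaps Apobr, a lipoprotein receptor gene on the opposite strand, over 103 of its 1021 exon bases (10.1%) in GENCODE M21. Apobr rose from 30.8 ± 0.809 to 35.9 ± 1.94 FPKM (SD, n = 3; log2 fold change 0.22, limma adjusted p 0.0365). No source used here gives the strand setting of the counting, and the part of Apobr reads in Il27 was not tested.

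Ebi3, the partner chain of p28, did not pass the test. It stood at 24.2, 28.4 and 28.8 FPKM in the controls and 27.1, 25.6 and 34.4 FPKM with Fbxw11, with overlapping groups and a 95% interval of the log2 fold change of -0.20 to 0.37 (limma adjusted p 0.695). Within each library the ratio of Ebi3 to Il27 FPKM was 3.59, 3.89 and 3.77 in control and 2.01, 1.91 and 2.10 in Fbxw11 libraries. The partner chain thus remained the more abundant transcript in all 6 libraries, by a smaller margin in the Fbxw11 group. The ratio differed by -0.90 on the log2 scale (exact permutation p 0.1, the smallest that 3 against 3 libraries allow, and 0.14 adjusted over the 7 ratios formed). Il27ra, the receptor chain particular to IL-27, had at most 4 reads in a library.

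Il1a and Il1b encode the IL-1 agonists, which start inflammation through the same receptor, and Il1rn encodes the antagonist that blocks it. Il1a stood at 37.7, 38.4 and 37.0 FPKM in the controls and 40.7, 44.3 and 41.4 FPKM with Fbxw11. The groups did not overlap, yet the log2 fold change of 0.16 (SE 0.041, 95% interval 0.06 to 0.25) missed the threshold with a limma adjusted p of 0.0677. The adjusted p ranged from 0.0467 to 0.176 over 15 alternatives, of which 1, a voom fit (0.0467), passed. Il1a shares 222 of its 1974 exon bases with the antisense gene Gm14023, which had at most 28 reads in a library, while Il1a had at least 1225.

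Il1b stood at 36.3, 35.2 and 34.9 FPKM in the controls and 38.0, 35.5 and 38.9 FPKM with Fbxw11. The groups overlapped, and the 95% interval of the log2 fold change was -0.03 to 0.18 (limma adjusted p 0.335). Its antisense gene Il1bos, which shares 25 exon bases with it, had at most 7 reads in a library. Il1rn, the most abundant of the 10 genes, stood at 149, 148 and 138 FPKM in the controls and 135, 141 and 141 FPKM with Fbxw11. Its groups overlapped too, with an interval of -0.16 to 0.04 (limma adjusted p 0.433) from at least 12187 reads per library. The antagonist was measured against the agonists within each library as Il1rn over the sum of Il1a and Il1b. This ratio was 2.017, 2.004 and 1.924 in control and 1.72, 1.77 and 1.76 in Fbxw11 libraries, without overlap. The difference was -0.18 on the log2 scale (exact permutation p 0.1, adjusted 0.14). The ratio of Il1a to Il1b, 1.06 ± 0.0258 in control and 1.13 ± 0.105 in Fbxw11 libraries (SD, n = 3), overlapped between the groups (exact permutation p 0.4, adjusted 0.467).

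Of the IL-1 receptor genes, the accessory chain Il1rap reached the filter, at 2.58 ± 0.0758 FPKM in the controls and 2.22 ± 0.0379 FPKM with Fbxw11 (SD, n = 3; limma adjusted p 0.129). The groups of Il1rap did not overlap, and its log2 fold change was -0.16 (limma unadjusted p 0.0227). The signalling receptor Il1r1 and the decoy receptor Il1r2 lay under the filter, with 21 to 63 and 7 to 21 reads per library. Il1r1 was listed at 0.201, 0.319 and 0.297 FPKM in the controls and 0.608, 0.414 and 0.332 FPKM with Fbxw11, higher and without overlap. The reads behind these values, 21, 39 and 32 in control and 63, 47 and 36 in Fbxw11 libraries, did overlap. Fitted without the filter, the limma adjusted p of Il1r1 was 0.426.

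Il18 encodes a relative of IL-1 that induces interferon-γ in lymphocytes. It stood at 20.2, 23.8 and 20.6 FPKM in the controls and 24.5, 24.6 and 21.7 FPKM with Fbxw11, with overlapping groups. The 95% interval of the log2 fold change was -0.05 to 0.31 (limma adjusted p 0.358). Bco2 and Tex12 overlap Il18 on the opposite strand with 0 shared exon bases. The ratio of Il18 to Il1b was 0.608 ± 0.0614 and 0.632 ± 0.0678 (SD, n = 3; exact permutation p 0.7). Its receptor chain Il18rap stood at 17.7 ± 0.644 and 18.0 ± 0.464 FPKM (limma adjusted p 0.762), while the other chain, Il18r1, had 1 to 6 reads per library.

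The precursors of IL-1β and IL-18 need an inflammasome for cleavage. Of 9 tested partner and processing genes 2 rose and 0 fell, beside 4.60% and 4.64% of all tested genes, with 0 lower at an unadjusted limma p under 0.05 and 0 by voom, and the median log2 fold change was -0.01. Nlrp3, an inflammasome sensor, stood at 37.0, 37.0 and 37.5 FPKM in the controls and 43.4, 43.5 and 40.5 FPKM with Fbxw11 (log2 fold change 0.19, limma adjusted p 0.0290). Casp4, the caspase that senses cytosolic lipopolysaccharide, rose from 31.2 ± 0.977 to 35.6 ± 1.32 FPKM (SD, n = 3; log2 fold change 0.18, limma adjusted p 0.0417). Neither group pair overlapped, but 10 of 15 alternative settings ended the call of Nlrp3 and 12 that of Casp4. Casp1, which cuts both precursors, stood at 22.5 ± 0.426 and 24.8 ± 1.91 FPKM (limma adjusted p 0.233), and the DNA sensor gene Aim2 at 61.9 ± 1.998 and 59.6 ± 3.65 FPKM (limma adjusted p 0.571). Pycard, the adaptor ASC that RAW264.7 cells are known to lack, had at most 4 reads in a library.

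Il23a encodes p19, the chain particular to IL-23, which sustains T helper 17 cells. It stood at 6.12, 5.81 and 6.14 FPKM in the controls and 5.11, 5.48 and 5.28 FPKM with Fbxw11. All Fbxw11 libraries were below all control libraries, by a ratio of means of 1.14. The log2 fold change of -0.16 (SE 0.045, 95% interval -0.27 to -0.05) missed the threshold with a limma adjusted p of 0.0827. It passed on the TPM scale (-0.22, adjusted p 0.0474) and over plain read sums (-0.19, adjusted p 0.0470), and the adjusted p ranged from 0.0470 to 0.239 over 15 alternatives.

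Il12b encodes p40, the chain that IL-12 and IL-23 share, and was barely detected. It had 0, 6 and 2 reads in control and 10, 9 and 6 reads in Fbxw11 libraries, or 0, 0.159 and 0.0600 against 0.312, 0.256 and 0.179 FPKM. Library control 1 is listed at 0, where a count of 0 allows up to 3 reads. The FPKM groups lay side by side without overlap (exact permutation p 0.1, the smallest possible). By reads, control 2 and Fbxw11 3 tied at 6. The summed reads, 8 and 25, gave a ratio of 3.13 per recovered library read with a 95% interval of 1.37 to 8.03, which covers counting error only. Fitted without the filter, the limma adjusted p was 0.226. No ratio of Il23a to Il12b was formed because of the 0. Il12a, the chain particular to IL-12, had 0 to 5 reads per library, and the IL-23 receptor gene Il23r had 0 in every library.

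Il10 encodes the main anti-inflammatory interleukin of macrophages. It stood at 1.53, 1.43 and 1.35 FPKM in the controls and 1.266, 1.497 and 1.165 FPKM with Fbxw11, from only 26 to 36 reads per library. The groups overlapped, and the 95% interval of the log2 fold change was -0.28 to 0.12 (limma adjusted p 0.603). The ratio of Il6 to Il10 was 2.99, 3.27 and 3.17 in control and 9.97, 10.1 and 11.9 in Fbxw11 libraries. That ratio moved by 1.76 on the log2 scale without overlap (exact permutation p 0.1, adjusted 0.14), and the ratio of Il6 to Il1b moved by 1.54, from 0.127 ± 0.00515 to 0.371 ± 0.0491 (SD, n = 3; exact permutation p 0.1). Of the receptor genes, Il10ra stood at 2.64, 2.66 and 2.51 FPKM in the controls and 3.42, 2.91 and 3.29 FPKM with Fbxw11, apart but short of the threshold (limma adjusted p 0.0864). Il10rb, the other chain, stood at 11.5 ± 0.543 and 11.5 ± 0.455 FPKM (SD, n = 3).

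Il15 encodes a growth factor for NK and memory T cells that is displayed to them on its own receptor chain, Il15ra. Il15 stood at 2.77, 2.71 and 2.74 FPKM in the controls and 2.93, 2.43 and 2.80 FPKM with Fbxw11. The Fbxw11 values lay on both sides of the control values, and the 95% interval of the log2 fold change was -0.17 to 0.15 (limma adjusted p 0.944). Il15ra was the 1 gene that rose among the 8 tested receptor and binding protein genes, beside 4.60% of all tested genes. Il15ra stood at 4.53, 4.83 and 4.39 FPKM in the controls and 6.08, 6.77 and 6.56 FPKM with Fbxw11, without overlap (log2 fold change 0.42, SE 0.055, limma adjusted p 0.00706). The presenting chain was thus higher without a called change in its cytokine, and the ratio of Il15 to Il15ra was 0.612, 0.562 and 0.624 in control and 0.483, 0.359 and 0.427 in Fbxw11 libraries. The ratio differed by -0.51 on the log2 scale (exact permutation p 0.1, adjusted 0.14). Of the 8 receptor genes 0 fell by limma, beside 4.64% of all tested genes. At an unadjusted limma p under 0.05, 2 were higher and 1 was lower (Il1rap), beside 2680 of all 10898 tested genes in either direction. Voom called 1 higher and 1 lower, beside 752 and 748 of all 10898. Il2rg, the common γ chain, stood at 24.2 ± 1.38 and 25.0 ± 1.67 FPKM (SD, n = 3).

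**Figure D3:**
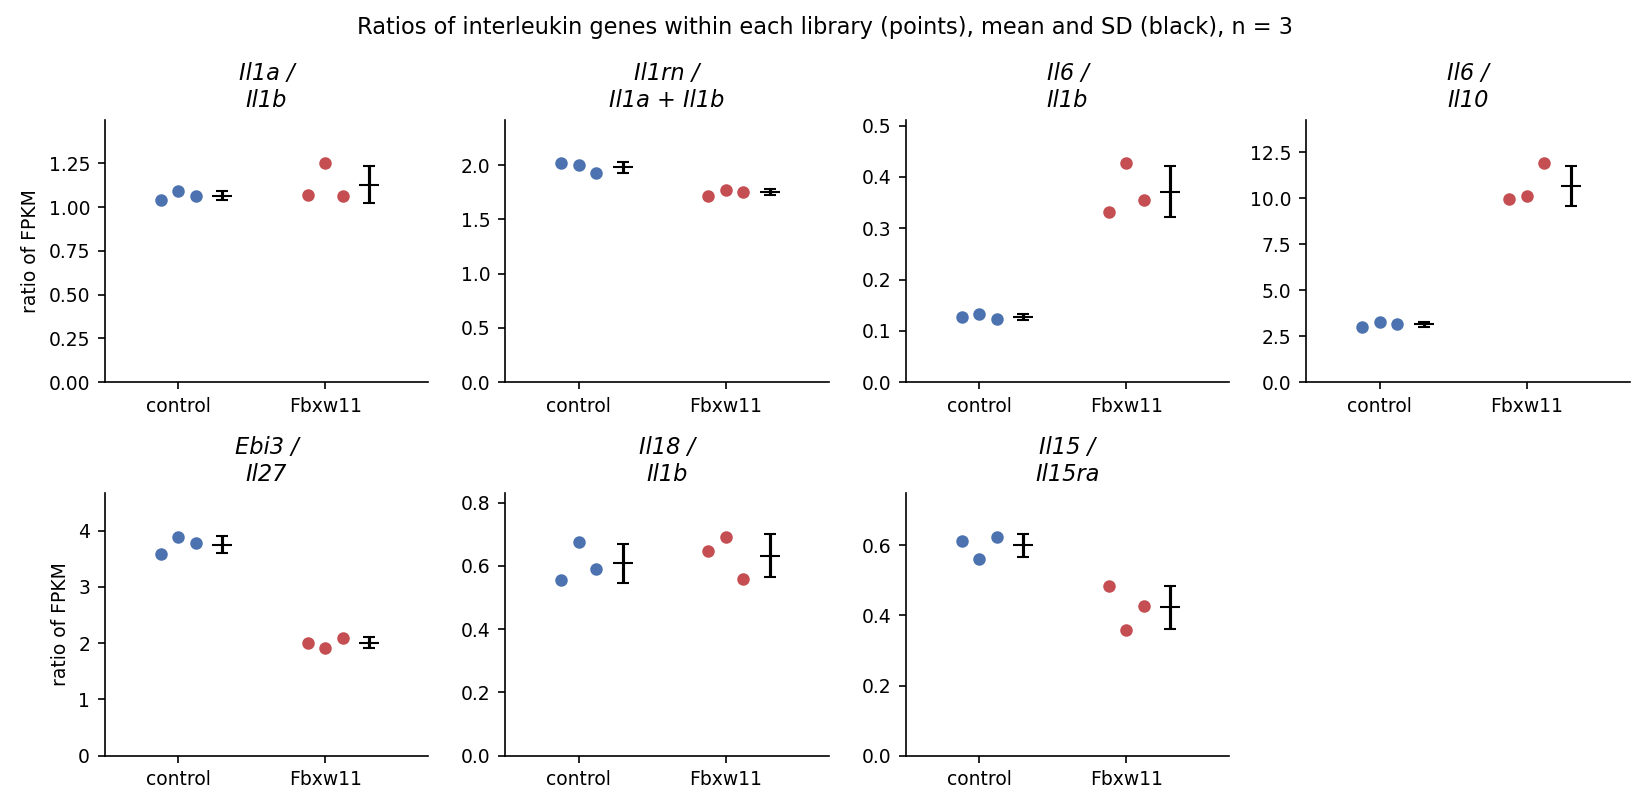
Ratios of FPKM between interleukin genes, or between an interleukin gene and its partner or receptor gene, in each library (blue, control; red, Fbxw11), with mean and SD in black (n = 3) and y axes from 0. The groups are apart for 5 of the 7 ratios, and overlap for Il1a to Il1b and Il18 to Il1b. Each of the 5 holds Il6, Il27, Il15ra or Il1a, whose own groups did not overlap, as in 31.1% of all tested genes. For each of the 5 the exact permutation p is 0.1, the smallest possible, and 0.14 adjusted over the 7 ratios.

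**Figure D4:**
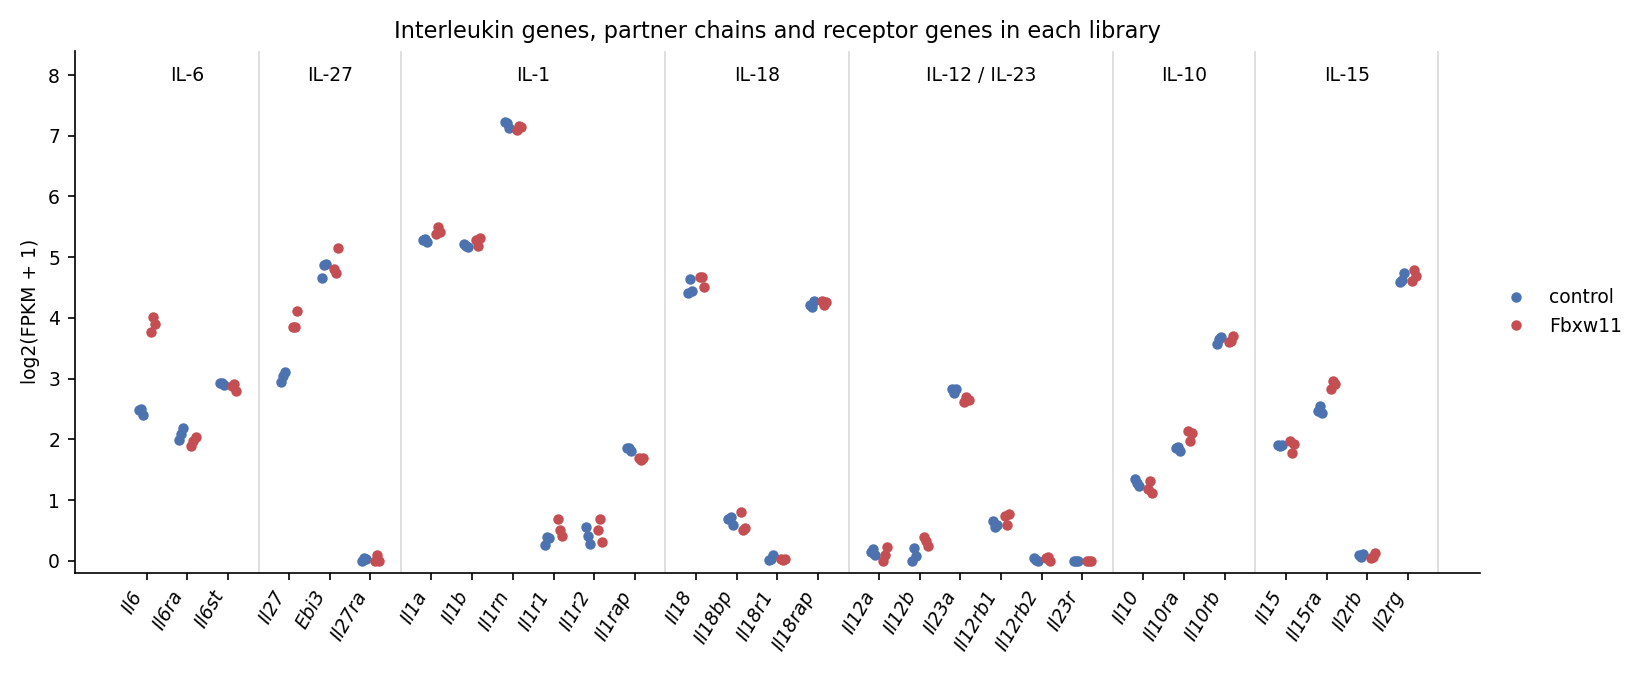
Level of each interleukin gene beside its partner chains and receptor genes, as log2(FPKM + 1) on the y axis, with 1 point per library (blue, control; red, Fbxw11). Il6, Il27 and Il15ra have red points clearly above the blue ones, while Il27ra, Il18r1, Il12rb2, Il23r and Il2rb lie near 0 in every library.

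On the FPKM scale, which is per gene length, the order of the control means was Il1rn, Il1a, Il1b, Il18, Il27, Il23a, Il6, Il15, Il10 and Il12b. No 2 neighbours in this order overlapped in their range over the 3 control libraries. In the Fbxw11 libraries Il6 stood above Il23a, and the ranges of Il27 and Il6 overlapped, so their order is not set. The other neighbours kept their order and did not overlap. The summed level of the 10 genes was 253 to 267 FPKM in the controls and 274 to 284 FPKM with Fbxw11.

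Among 24 tested transcription factors and coregulators of interleukin genes, 8 rose and 1 fell, beside 4.60% and 4.64% of all tested genes, with a median log2 fold change of 0.18 beside 0.0029. Junb and Cebpd, which rose, were also counted among the STAT3 targets, so the lists are not separate. This list too was chosen with earlier results of these data known, so its counts are a description and no test. Of the 9 calls, those of Atf3 and Nfkbiz were kept under all 15 alternative settings. The others were ended by 3 (Nfkb2), 5 (Junb), 6 (Nfkb1), 7 (Rel), 10 (Fosl2), 11 (Cebpd) and 12 (Irf8) of them. Atf3, a stress-induced factor that can repress Il6, stood at 530.3, 537.7 and 545.4 FPKM in the controls and 729.5, 712.8 and 716.3 FPKM with Fbxw11 (log2 fold change 0.42, limma adjusted p 0.00106). Nfkbiz, which encodes IkBζ, a nuclear coactivator needed for Il6 induction, rose from 35.9 ± 1.04 to 43.2 ± 0.669 FPKM (SD, n = 3; log2 fold change 0.26, limma adjusted p 0.00706). The NF-kB genes Nfkb2 and Nfkb1 rose by 0.25 and 0.18 on the log2 scale. Rela, the main activating subunit, stood at 23.2 ± 1.39 and 24.5 ± 1.81 FPKM (SD, n = 3; limma adjusted p 0.537), and Cebpb at 65.8 ± 5.01 and 67.0 ± 10.4 FPKM (limma adjusted p 0.940). Fosl2 was the gene that fell, from 12.0 ± 0.475 to 10.4 ± 0.408 FPKM (limma adjusted p 0.0478).

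Among 12 RNA-binding regulators of interleukin mRNA, 2 rose and 1 fell, beside 4.60% and 4.64% of all tested genes, with a median log2 fold change of -0.03. Zfp36 encodes tristetraprolin, which binds AU-rich elements and speeds the decay of cytokine mRNA. It stood at 95.4, 97.1 and 92.2 FPKM in the controls and 114, 112 and 129 FPKM with Fbxw11 (log2 fold change 0.31, limma adjusted p 0.0218). Its relative Zfp36l1 rose from 11.8 ± 0.844 to 15.1 ± 0.907 FPKM (SD, n = 3). Zfp36l2, another relative, was lower without overlap, at 13.0 ± 0.199 and 11.9 ± 0.361 FPKM, and did not pass (limma adjusted p 0.0967). At an unadjusted limma p under 0.05, 3 of the 12 were higher and 2 were lower, beside 2680 of all 10898 tested genes in either direction. Rc3h1, the decay factor Roquin-1, fell from 11.6 ± 0.333 to 10.1 ± 0.326 FPKM. Of 15 alternative settings, 6, 8 and 10 ended the calls of Zfp36, Zfp36l1 and Rc3h1.

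Of 40 further interleukin and related ligand genes, 35 were in the table by the symbols used, 14 were at 0 in every library and 5 passed the filter. Of these 5, Lif, a gp130 cytokine of the IL-6 family, rose, and 0 fell, beside 4.60% and 4.64% of all tested genes, with 0 lower at an unadjusted limma p under 0.05 and 0 by voom. Lif stood at 7.27, 7.36 and 7.05 FPKM in the controls and 9.32, 9.94 and 9.58 FPKM with Fbxw11, without overlap (log2 fold change 0.37, limma adjusted p 0.00394). Osm, another member of that family, stood at 41.9 ± 2.07 and 42.5 ± 1.10 FPKM (SD, n = 3; limma adjusted p 0.835), and Il16 at 6.10 ± 0.0477 and 5.88 ± 0.222 FPKM (limma adjusted p 0.564).

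**Figure D5:**
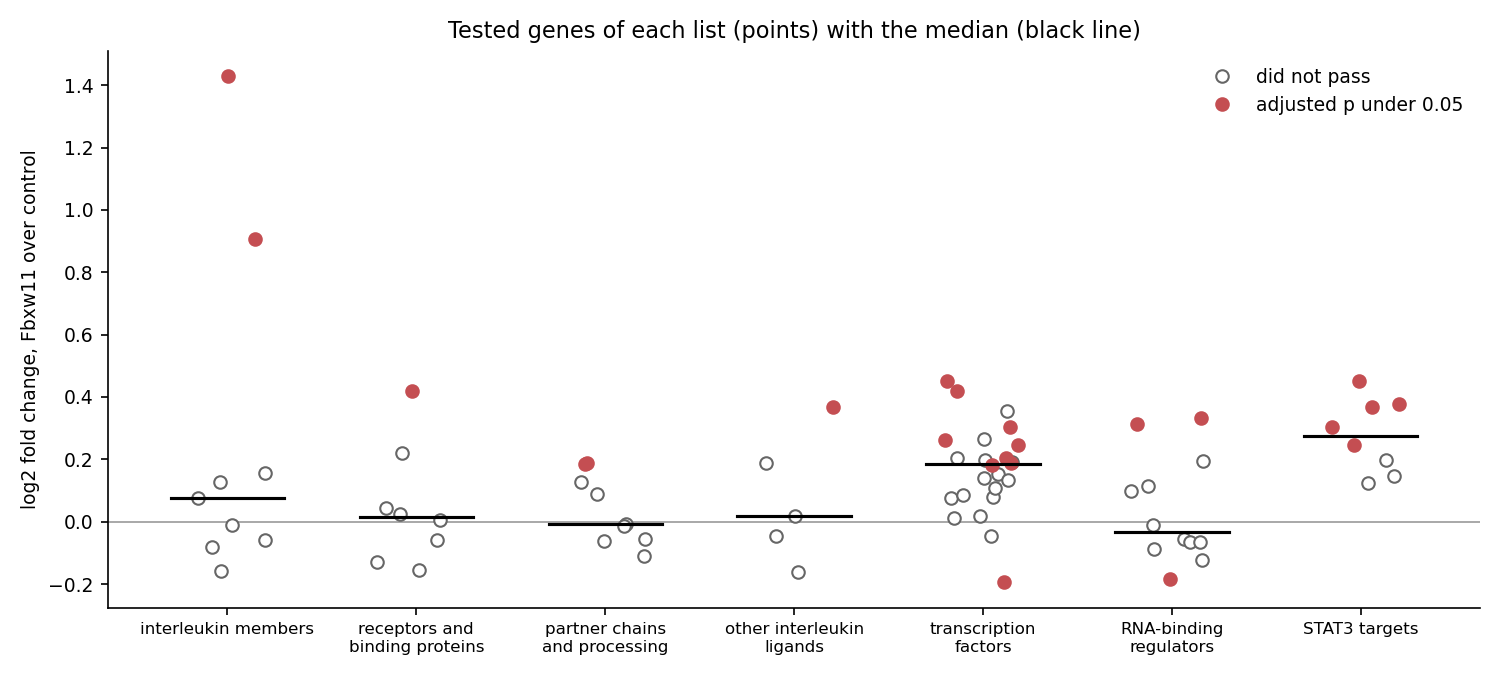
Log2 fold change (y axis, Fbxw11 over control) of each tested gene in 7 lists, filled where the adjusted p was under 0.05, with the list's median as a black line. Il6 (1.43) and Il27 (0.91) stand far above all other genes shown, and the medians range from -0.03 for RNA-binding regulators to 0.28 for STAT3 targets. Junb and Cebpd appear under both transcription factors and STAT3 targets.

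The genes most like Il6 and Il27 over the 6 libraries were sought among 9517 tested protein-coding genes, as the smallest root mean square difference of log2(FPKM + 1) after subtraction of each gene's control mean. For Il6 they were the type I interferon genes Ifna4 (difference 0.0954), Ifna2 (0.124) and Ifnb1 (0.164). Ifna4 and Ifna2 belong to a family of near-identical copies, so their reads are uncertain. Mean FPKM in control and Fbxw11 libraries was 3.18 and 11.4 for Ifna4, 1.40 and 5.78 for Ifna2, and 8.22 and 27.1 for Ifnb1. The added 1 narrows log2 changes most in the lowest genes, and its part in the match was not tested. For Il27 they were Gm13889 (0.0852), the endothelin gene Edn1 (0.129) and the chemokine gene Cxcl10 (0.136), with Cxcl10 at 31.3 and 54.0 FPKM on average. The measure includes the difference between the group means, and over 6 libraries it is a description.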

How the data were processed

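RNA of 6 libraries was sequenced after standard Illumina library preparation, per the labels' protocols. The authors deposited FPKM per gene, scaled by the authors to gene length and library size, with mm10 as genome build per the submitters' processing notes. Aligner, counter, annotation and strand setting: not given in the sources used here. Gene starts and ends as deposited equal those of GENCODE M21 on mm10 for 2.76% of 52034 genes, while 96.8% have the same span. The deposited coordinates thus differ from mm10, and they are printed with the build not stated. FPKM times length, divided by a unit fitted in each library, gave whole reads (100% of values within 0.02 reads). This unit also gave the library sizes the authors divided by. They were 1.014 to 1.018 times the read sum in control and 0.987 to 0.993 times in Fbxw11 libraries.

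Genes whose mean reached 1 FPKM were tested with limma 3.58.1 in R 4.3.3 on log2(FPKM + 1), with a mean-variance trend, two-sided, all 6 libraries and no covariate. Adjusted p-values are limma's with Benjamini-Hochberg adjustment over all tested genes. Fold changes on this scale understate those of low genes. Ratios and Il12b were compared with two-sided exact permutation tests. Chi-square tests of recovered reads put replicates apart beyond counting noise (2.42 to 5.86 times the degrees of freedom), and each was counted as 1 sample. Intervals on reads cover counting error only. Besides the 10 genes, up to 5 called genes per list were named by smallest p, filled up to 3 by abundance, with the 3 genes most like each called interleukin. Other genes named were chosen after their values were seen. The interleukin genes and lists were chosen with earlier results of these data known. Alternatives were other pseudocounts (0.1 and 0.5), no filter, no trend, other scalings, voom, a replicate block and leaving out libraries. Promoters came from RefSeq.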

Additional observations from a re-analysis of the deposited data

How the results depend on the processing

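Il6 passed the threshold under all 15 alternatives (log2 fold change 1.37 to 1.62) and Il27 under all 15 (0.82 to 0.99). Il1a passed under 1 (voom, 0.16) and Il23a under 2. The number of interleukin genes that fell, 0, became 1 on the TPM scale and 1 over plain read sums, where Il23a was called (-0.22 and -0.19). The value of Il15 turned sign without Fbxw11 library 2, and ranged from -0.05119 to 0.04792 as each library was left out; the cause was not tested. Il1b, Il1rn, Il10 and Il18 kept their sign and did not pass under any of the 15. With the replicate number as a block, 2 interleukin genes rose and 0 fell, while calls over all genes went from 1007 to 621 (303 rises and 318 falls). Same-numbered libraries correlated in their deviations at 0.0361, 0.0405 and 0.189, the highest for the libraries numbered 3. Control 1 correlated best with Fbxw11 library 2 (0.148). As not every same-numbered pair was over 0.1 and the labels name no shared batch, the numbers were not taken as a pairing. Calls over all genes were 596 without the filter and 1500 by voom, and 410 to 801 with a single library left out. Without both libraries numbered 3, which the second principal component sets apart, 698 genes were called, a choice made after seeing the data. The TPM scale moved the median of all genes to -0.04. The ratio of Il18 to Il1b ranged from -0.0134 to 0.141 on the log2 scale with a library left out. Reads limit Il12b and Il10, with 0 to 10 and 26 to 36 per library.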

Other observations

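Il33, an alarmin of the IL-1 family, lay under the filter and was singled out after its values were seen. It stood at 0.358, 0.469 and 0.511 FPKM in control and 0.809, 0.835 and 1.02 FPKM in Fbxw11 libraries, from 17 to 26 and 38 to 50 reads. The groups did not overlap. Fitted with limma without the filter, the log2 fold change was 0.38 (SE 0.080) and the adjusted p 0.0893.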
